A study of Homo sapiens with 10 samples.

Results

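Epithelial cells and mesenchymal cells make different mRNA isoforms of many of the same genes, and a small set of RNA-binding proteins sets much of that choice. ESRP1 and ESRP2 are the epithelial splicing regulatory proteins, whose loss accompanies the change from an epithelial to a mesenchymal state. RBFOX2 and QKI are RNA-binding proteins better known for exons used in mesenchymal cells. CD44, CTNND1, ENAH, FGFR1, FGFR2 and SLK are genes whose alternative exons or starts respond to these regulators. These 10 genes were followed in long-read RNA sequencing of 7 ovarian cancer cell lines. Every transcript entry whose gene name is, or contains as a joined name, a member of this set was taken, which gave 95 of 99493 deposited entries under 10 of 57110 gene identifiers.

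Total RNA of established ovarian cancer lines was sequenced as nanopore reads from a ligation library kit, which can cover a transcript over much of its length. COV504, COV362, OVKATE, OVMANA, OVTOKO and SK-OV-3 are represented by 1 PromethION library apiece. For IGROV-1 there are 2 PromethION and 2 MinION libraries, which are 2 nanopore instruments. The labels give no treatment, growth condition or culture, so the IGROV-1 replicates may be technical and the p-values then measure only the spread between these libraries. Each lone library is assumed in the tests to vary like the IGROV-1 libraries. For that spread the main tests count the MinION libraries as independent replicates beside the PromethION libraries. Differences between replicates 1 and 2 correlated between the instruments (r = 0.49 across 7894 genes). If the MinION libraries are the same samples sequenced again, the p-values against IGROV-1 are too small. Whether they are was not tested.

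The libraries held 1729782 to 3666224 counts, so the limit of 3 counts used for a count of 0, a approximate one-sided 95% limit, corresponds to 0.818 to 1.73 CPM, a gene's counts scaled to the same total in every library. Mitochondrial ribosomal RNA took 9.13% and 10.95% of counts in the PromethION libraries of IGROV-1 and 1.01% to 3.31% in the others, and the part of this in the results was not tested. PAX8, a Müllerian lineage factor, was present in all 10 libraries at 84.1 to 339.8 CPM. KRT7, CDH1 and WT1, 3 of the 8 ovarian epithelium markers, were at 0 in all 4 IGROV-1 libraries, and EPCAM was there at 0 to 1.54 CPM. The keratins KRT19 and KRT18 were present in them at 140.1 to 177.0 and 243.6 to 1080 CPM. The 5 leukocyte markers summed to 0 to 16.3 CPM, with CD3E at 0 in every library, and the 3 endothelium markers to 0.534 to 25.8 CPM. Of the 6 fibroblast markers, which summed to 0.578 to 435.3 CPM, COL1A2 reached 429.4 CPM in COV362 and COL1A1 219.3 CPM in SK-OV-3. Their part in the results was not tested. In bulk RNA, fewer cells with a transcript and less of it per cell cannot be told apart.

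ESRP1 and ESRP2 were high in OVMANA and OVKATE, low in COV504 and COV362, and near or at 0 in the other lines. ESRP1 was counted at 87.1 CPM in OVMANA, 84.1 CPM in OVKATE, 24.9 CPM in COV504 and 5.09 CPM in COV362. It had a count of 0 in OVTOKO, in SK-OV-3 and in all 4 IGROV-1 libraries. The 163 and 170 counts of OVMANA and OVKATE give 95% Poisson intervals of 74.2 to 101.5 and 71.9 to 97.7 CPM, which overlap, while COV504 (18.8 to 32.4) and COV362 (2.71 to 8.71) lie apart from them and from each other. These intervals cover counting error only.

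ESRP2 is the paralog of ESRP1 and binds similar GU-rich sequences. It stood at 25.1 CPM in OVMANA, 25.7 CPM in OVKATE, 6.67 CPM in COV504, 3.92 CPM in COV362, 2.03 CPM in SK-OV-3 and 0 in OVTOKO. IGROV-1 gave 1.28 and 2.58 CPM on the PromethION and 0.546 and 1.85 CPM on the MinION. Only OVMANA and OVKATE stand clear of the rest, since the intervals of COV504 (3.74 to 11.01 CPM), COV362 (1.88 to 7.21 CPM) and SK-OV-3 (0.552 to 5.19 CPM) overlap.

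RBFOX2 varied less. It was 37.4, 34.6, 48.1, 24.7, 78.0 and 37.6 CPM in OVMANA, OVKATE, COV504, COV362, SK-OV-3 and OVTOKO, and 67.9 and 86.8 CPM in the PromethION libraries of IGROV-1. SK-OV-3 was the only other line inside the range of these 2 libraries, and COV362 was lowest. QKI, which also has roles in RNA stability, was 59.3, 32.6, 158.8, 108.9, 217.3 and 64.2 CPM in the same order of lines. Its IGROV-1 values were 106.8 and 109.5 CPM on the PromethION and 127.9 and 146.8 CPM on the MinION. OVKATE, OVMANA and OVTOKO, with intervals of 25.3 to 41.5, 48.8 to 71.4 and 52.8 to 77.3 CPM, held the lowest QKI, and SK-OV-3 the highest.

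**Figure D1:**
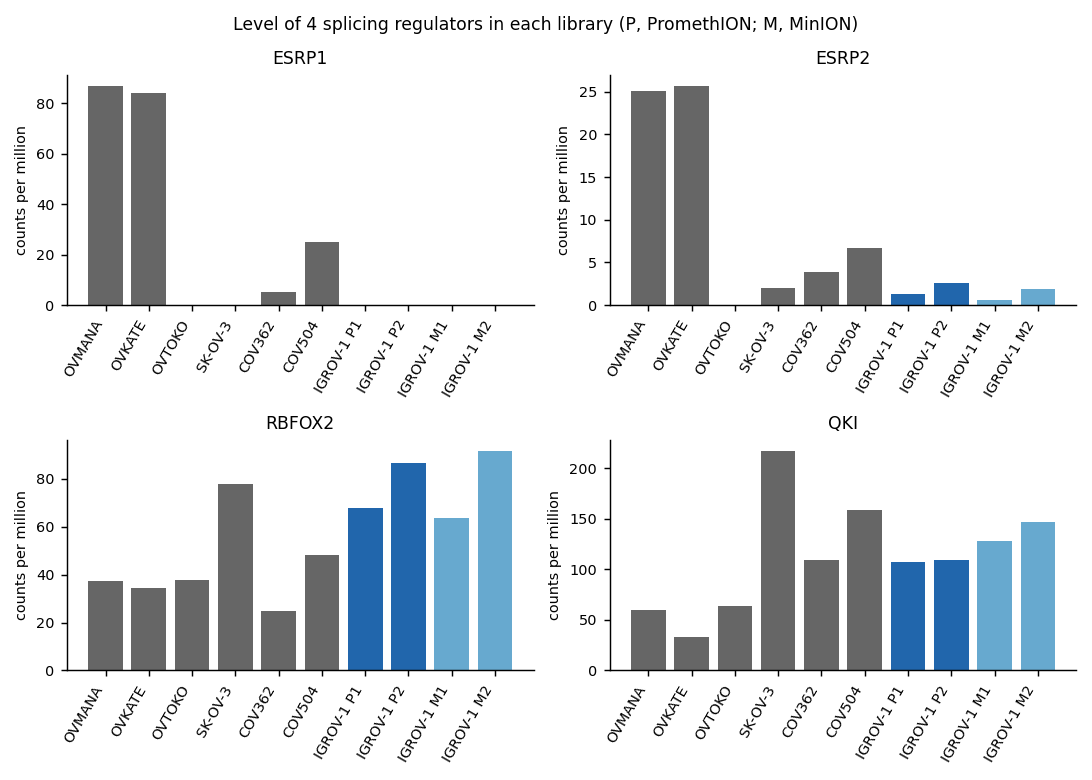
Level of the 4 regulators in CPM (y axis) in each of the 10 libraries (x axis), 1 bar per library; grey bars are the lines with 1 library, dark blue the PromethION and light blue the MinION libraries of IGROV-1. ESRP1 reaches 87.1 and 84.1 CPM in OVMANA and OVKATE and is 0 in OVTOKO, SK-OV-3 and IGROV-1, while QKI is highest in SK-OV-3 at 217.3 CPM.

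Each other line was compared with the 2 PromethION libraries of IGROV-1 by the quasi-likelihood test of edgeR over 13030 genes, with Benjamini-Hochberg adjustment over all of them. These 6 comparisons share their control libraries, so their results are not independent of each other. In OVMANA 8 of the 10 members passed an adjusted p of 0.05, beside 35.4% of all genes tested: 3 were higher, beside 18.9%, and 5 lower, beside 16.5%. In OVKATE 8 of 10 passed, beside 49.2%, with 4 higher (26.8% of all genes) and 4 lower (22.4%). COV504 had 6 members called, beside 43.5%, of which 4 were higher (24%) and 2 lower (19.6%). OVTOKO had 5, beside 34.1%, of which 2 were higher (18.2%) and 3 lower (15.9%). COV362 had 4, beside 42.5%, of which 2 were higher (23.7%) and 2 lower (18.8%). SK-OV-3 had 3, beside 41.8%, of which 2 were higher (22%) and 1 lower (19.8%). The share of members called was thus below or near that of all genes in SK-OV-3 and COV362. The median log2 change of the members was -0.64 in OVMANA, 0.17 in OVKATE, 0.27 in COV504, -0.04 in COV362, -0.08 in SK-OV-3 and -0.38 in OVTOKO, while the median of all genes was between -0.01 and 0.04 in each.

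Among the regulators, ESRP1 was higher than in IGROV-1 in 4 lines. Against the 3-count limit over the IGROV-1 PromethION group, 0.643 CPM, it was at least 135.6-fold higher in OVMANA, 130.9-fold in OVKATE, 38.8-fold in COV504 and 7.93-fold in COV362. The adjusted p-values by edgeR were 4.2e-05, 3.8e-05, 0.00027 and 0.0047, and each of these calls also held under every alternative fit that was run. ESRP1 was at 0 in all 4 IGROV-1 libraries, the only replicates, so its own spread was not measured. Its p-values rest on a spread taken from other genes, and it passed the count filter only through lines in which it was counted. The alternative fits, those with 1 of these libraries left out among them, therefore test the ESRP1 calls little beyond its counts. ESRP2 rose in OVMANA by 3.73 ± 0.51 on the log2 scale (SE, adjusted p = 0.00081 by edgeR) and in OVKATE by 3.40 ± 0.51 (adjusted p = 0.00084 by edgeR). With the DESeq2 test these 2 calls were lost, at adjusted p = 0.088 and 0.11. Its log2 change in COV504, 1.69 ± 0.66, did not pass (adjusted p = 0.067 by edgeR).

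QKI fell in OVKATE by 2.03 ± 0.19 on the log2 scale (adjusted p = 8.0e-05 by edgeR), in OVMANA by 0.80 ± 0.18 (adjusted p = 0.0087 by edgeR) and in OVTOKO by 0.68 ± 0.18 (adjusted p = 0.019 by edgeR). It rose in SK-OV-3 by 0.78 ± 0.15 (adjusted p = 0.0043 by edgeR) and in COV504 by 0.48 ± 0.16 (adjusted p = 0.037 by edgeR). The OVKATE decrease held under all 10 alternative fits. With DESeq2 the other QKI calls were lost, at adjusted p = 0.31 in OVMANA, 0.45 in OVTOKO, 0.17 in SK-OV-3 and 0.48 in COV504. OVTOKO lost its call in 3 of 10 alternatives in all and COV504 in 5. RBFOX2 was lower in 5 lines, from a log2 change of -1.60 ± 0.28 in COV362 (adjusted p = 0.0025 by edgeR) and -1.46 ± 0.28 in OVKATE (adjusted p = 0.0028 by edgeR) to -0.76 ± 0.26 in COV504 (adjusted p = 0.042 by edgeR). Of these, the COV362 call held in all 10 alternative fits, that of OVKATE in 9, those of OVMANA and OVTOKO in 5 each and that of COV504 in 3.

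Transcript entries of the regulators themselves were also inspected, and no regulator passed the test of transcript usage in any line. For ESRP1 and ESRP2 this test could not decide, because the IGROV-1 PromethION libraries held 0 counts of ESRP1 and 3 and 6 of ESRP2. Of the RBFOX2 counts, the entry ENST00000405409 held 57.5% to 76.7% and ENST00000449924 held 11.5% to 33.0%. QKI was mostly 1 entry, ENST00000361752, from 79.9% of its counts in SK-OV-3 to 99.97% in OVKATE. The 4 ESRP1 entries code for 604 to 681 residues, and ENST00000358397 was the largest in OVMANA (47.5%) and OVKATE (42.6%). ESRP2 counts went mostly to ENST00000565858, 67.1% in OVMANA and 77.9% in OVKATE.

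The levels of the targets came next, since a share of isoforms is only as firm as the counts behind it. CD44, a hyaluronan receptor at the cell surface, had the widest range. It was at 657.3 CPM in OVTOKO, 634.6 CPM in SK-OV-3, 480.1 CPM in COV504 and 426.6 CPM in COV362. OVMANA and OVKATE had 0 counts of it, the 2 lines in which ESRP1 was highest. IGROV-1 lay between at 22.2 and 52.8 CPM on the PromethION, and its MinION libraries repeated that gap between replicates at 18.3 and 50.4 CPM.

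CD44 rose against IGROV-1 in OVTOKO by 4.21 ± 0.48 on the log2 scale, in SK-OV-3 by 3.85 ± 0.47, in COV504 by 3.60 ± 0.48 and in COV362 by 3.55 ± 0.48, with adjusted p-values by edgeR of 0.00036 to 0.00064. Against the limit of 3 counts in each library it was at least 23.4-fold lower in OVMANA and 25.3-fold lower in OVKATE (adjusted p = 0.010 and 0.0043 by edgeR). The OVMANA call was lost without MinION replicate 1 of IGROV-1, at adjusted p = 0.057. Beside the 2.38-fold gap of CD44 between the IGROV-1 PromethION replicates, and 2.76-fold on the MinION, KRT18 was also lower in replicate 1, 262.7 against 1041 CPM on the PromethION and 243.6 against 1080 CPM on the MinION. With it the 18 epithelial genes summed to 677.5 against 1496 CPM and 729.1 against 1621 CPM, a gap that came mostly from KRT18 itself. The other genes went in both directions. KRT19 was lower in replicate 1, 140.1 against 176.1 CPM on the PromethION and 154.4 against 177.0 CPM on the MinION. CLDN3 was higher in replicate 1, 136.7 against 103.1 CPM on the PromethION and 173.5 against 148.6 CPM on the MinION. The part of this in the CD44 result was not tested.

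ENAH encodes Mena, a regulator of actin filament growth. It was at 183.3 CPM in OVMANA, 122.7 CPM in OVKATE, 85.0 CPM in OVTOKO, 100.3 CPM in SK-OV-3, 49.8 CPM in COV362 and 55.6 CPM in COV504, against 61.5 and 73.5 CPM in IGROV-1 on the PromethION. ENAH rose in OVMANA by 1.503 ± 0.18 on the log2 scale (adjusted p = 0.00045 by edgeR), a call kept in all 10 alternative fits. In OVKATE it rose by 0.56 ± 0.19 (adjusted p = 0.039 by edgeR), which was lost in 6 of the 10.

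FGFR1 and FGFR2 are receptor tyrosine kinases for fibroblast growth factors. FGFR1 was 355.5 CPM in OVTOKO, against 72.7 CPM in OVMANA, 81.6 CPM in OVKATE, 62.3 CPM in SK-OV-3, 43.5 CPM in COV362, 20.9 CPM in COV504 and 59.0 and 71.7 CPM in IGROV-1. It rose in OVTOKO by 2.52 ± 0.17 on the log2 scale (adjusted p = 2.3e-05 by edgeR) and fell in COV504 by 1.72 ± 0.24 (adjusted p = 0.00069 by edgeR), and both calls held in all 10 alternative fits. FGFR2 was highest in OVKATE at 59.9 CPM, against 25.2 and 26.6 CPM in IGROV-1, and low in SK-OV-3 (2.03 CPM, 4 counts) and OVTOKO (4.05 CPM, 7 counts). It was 13.9 CPM in OVMANA, 10.6 CPM in COV362 and 16.9 CPM in COV504. The rise of FGFR2 in OVKATE was 0.90 ± 0.21 on the log2 scale (adjusted p = 0.0075 by edgeR), and it was lost with DESeq2 (adjusted p = 0.51). FGFR2 fell in SK-OV-3 by 3.87 ± 0.42 (adjusted p = 0.00021 by edgeR), which held throughout, and in OVTOKO by 2.59 ± 0.38, COV362 by 1.25 ± 0.27 and OVMANA by 0.84 ± 0.28 (adjusted p = 0.0013, 0.0073 and 0.047 by edgeR). The last 3 were lost in 1, 1 and 8 of 10 alternatives.

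SLK encodes a kinase that acts on the cytoskeleton. Its level was 32.1, 17.8, 54.3, 43.5, 82.5 and 30.1 CPM in OVMANA, OVKATE, COV504, COV362, SK-OV-3 and OVTOKO, and 45.3 and 52.8 CPM in IGROV-1. The only call for SLK was its decrease in OVKATE, by 1.76 ± 0.24 on the log2 scale (adjusted p = 0.00057 by edgeR), kept in all 10 alternatives. CTNND1 encodes p120 catenin, which holds cadherins at the cell surface. The deposited annotation joins it with the neighbouring gene TMX2 under 1 identifier, which was 93.5, 248.3, 269.6, 170.4, 142.3 and 139.3 CPM in the same order of lines and 155.1 and 167.1 CPM in IGROV-1. The CTNND1 entries alone were 37.4, 90.0, 146.4, 71.7, 65.8 and 68.8 CPM, and 56.0 and 68.3 CPM in IGROV-1. Tested apart from TMX2, CTNND1 rose in COV504 by 1.13 ± 0.20 on the log2 scale (adjusted p = 0.0027 by edgeR), and its log2 change of -0.65 ± 0.25 in OVMANA did not pass (adjusted p = 0.073 by edgeR). The joined identifier passed in both, with log2 changes of 0.66 ± 0.15 and -0.72 ± 0.17 (adjusted p = 0.0083 and 0.012 by edgeR).

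**Figure D2:**
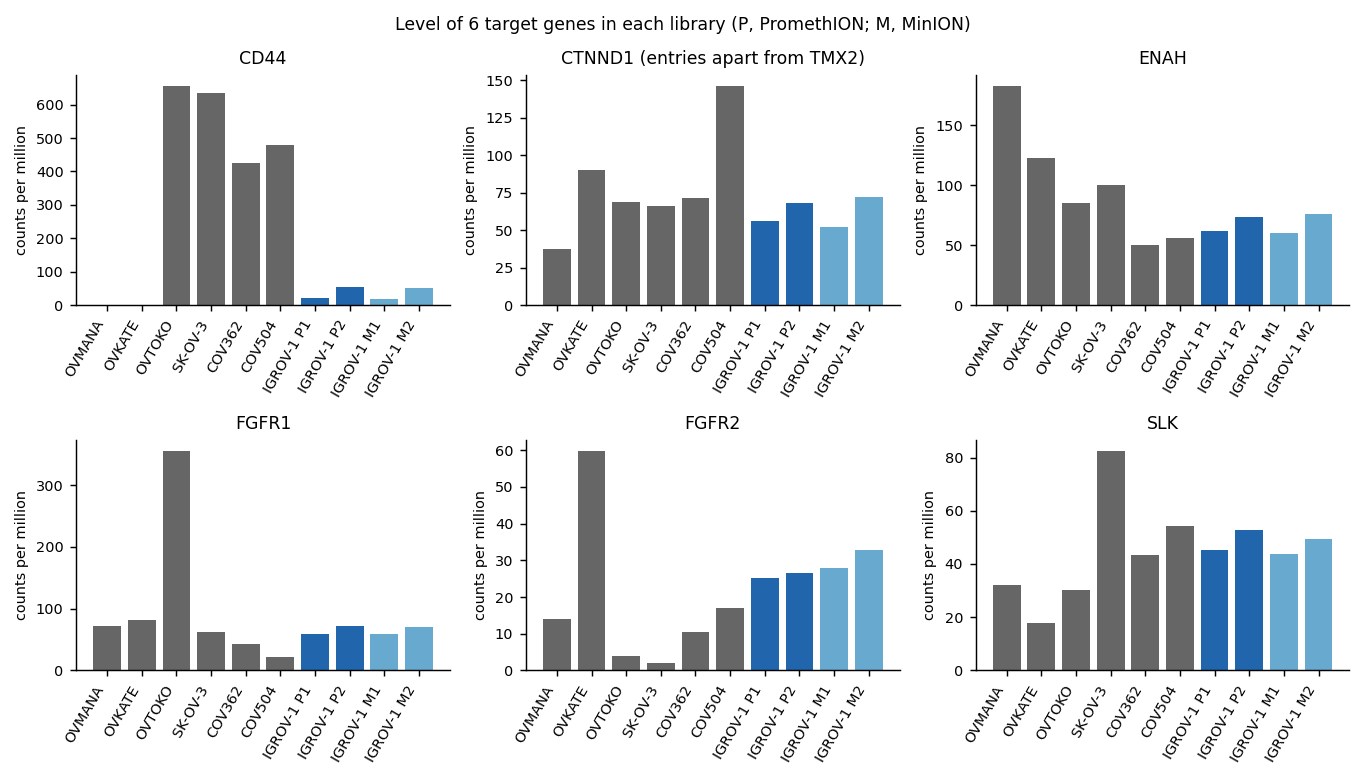
Level of the 6 target genes in CPM (y axis) in each library (x axis), 1 bar per library, with CTNND1 shown without the TMX2 entries; dark blue is IGROV-1 on the PromethION, light blue IGROV-1 on the MinION. CD44 is 0 in OVMANA and OVKATE and 426.6 to 657.3 CPM in OVTOKO, SK-OV-3, COV362 and COV504, and FGFR1 stands at 355.5 CPM in OVTOKO.

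Isoforms were then compared as shares of each gene's counts. These are estimated counts of transcript entries, not reads over a junction. The Wilson intervals below cover counting error only, without error in assigning reads to entries or spread between libraries. SLK gave the simplest event, because its 2 entries start and end at the same bases and differ by 1 cassette exon, the 13th, of 93 nt at chr10:104010816-104010908 on the plus strand of GRCh38. With it the entry ENST00000369755 codes for 1235 residues, and without it ENST00000335753 codes for 1204. The joined sequences around the exon are shown because the entries differ by this exon alone. In the longer one the capitals are the whole cassette exon, and in the shorter one they are the bases on either side of the join.
SLK with the cassette exon: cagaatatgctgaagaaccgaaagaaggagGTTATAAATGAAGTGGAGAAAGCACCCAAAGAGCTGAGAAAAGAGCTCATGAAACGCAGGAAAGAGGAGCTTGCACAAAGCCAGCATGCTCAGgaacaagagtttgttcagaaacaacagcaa
SLK without the cassette exon: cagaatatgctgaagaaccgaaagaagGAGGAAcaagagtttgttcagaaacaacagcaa

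The entry with this exon took 72.3% of SLK counts in OVMANA (60 counts, 95% Wilson interval 59.9% to 82.0%). It took 24.6% in OVKATE (36 counts, 13.4% to 40.6%), 22.0% in OVTOKO (52 counts, 12.9% to 35.0%), 17.9% in COV504 (122 counts, 12.1% to 25.6%) and 12.5% in COV362 (111 counts, 7.61% to 19.98%). SK-OV-3 gave 5.80% of 163 counts (3.12% to 10.502%), and IGROV-1 gave 5.21% and 10.4% on the PromethION and 4.02% and 8.06% on the MinION. OVMANA lies apart from every other library, while the intervals of OVKATE, OVTOKO, COV504 and COV362 overlap. OVKATE carried as much ESRP1 as OVMANA, and its interval does not reach the share seen there.

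Differences in share were tested with the edgeR test of differential transcript usage, which asks whether entries of a gene change relative to each other. In OVMANA 3 of the 6 targets passed, SLK, ENAH and CTNND1, beside 2.75% of the 4730 genes tested. CTNND1 was the single target in OVKATE, beside 4.97%, and in COV504, beside 2.56%. FGFR1 was the single one in SK-OV-3, beside 2.07%. None passed in OVTOKO, beside 1.35%, where only FGFR2 had an unadjusted p under 0.05, or in COV362, beside 2.98%, where none did. No second tool was run for usage.

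SLK usage in OVMANA differed from IGROV-1 at adjusted p = 0.013 by edgeR, with the entry holding the exon 2.15 higher on the log2 scale relative to the gene. Without any 1 of the 4 IGROV-1 libraries, or with PromethION libraries only, it did not pass, at adjusted p-values by edgeR up to 0.13. With normalization by DESeq2 size factors, no filter, or summing by event it passed. SLK in OVKATE (adjusted p = 0.46 by edgeR) and OVTOKO (adjusted p = 0.69) did not pass.

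CTNND1 isoforms are named by the start codon they use. Isoform 1, the longest, is known from mesenchymal cells, and isoform 3, whose start lies further downstream, from epithelial cells. On GRCh38 the starts are at positions 57791479 and 57795613 of chromosome 11, plus strand, and along the mRNA they are 303 nt, or 101 residues, apart. The coding bases from each start are shown with the start codon in capitals, because the isoforms are told apart by them.
CTNND1 isoform 1 start: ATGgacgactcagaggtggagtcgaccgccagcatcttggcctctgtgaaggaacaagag
CTNND1 isoform 3 start: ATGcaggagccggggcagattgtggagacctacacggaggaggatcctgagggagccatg

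Among counts of entries with either start, isoform 3 took 82.4% in OVKATE (152 counts, 75.6% to 87.6%) and 78.2% in OVMANA (62.1 counts, 66.4% to 86.6%). It took 63.1% in COV504 (311 counts, 57.6% to 68.3%), 55.0% in COV362 (160 counts, 47.2% to 62.5%), 40.5% in SK-OV-3 (108 counts, 31.7% to 49.9%) and 26.9% in OVTOKO (96.3 counts, 19.1% to 36.6%). IGROV-1 gave 45.1% and 33.0% on the PromethION and 31.6% and 42.6% on the MinION. The share was above 50% in the 4 lines with counted ESRP1, and below it in the 3 lines without. The intervals of COV362 and of IGROV-1 PromethION replicate 1 (36.7% to 53.9%) span 50%. Neighbours in this order, such as OVKATE and OVMANA or COV504 and COV362, have overlapping intervals.

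The CTNND1 entries that moved most were ENST00000358694, an isoform 1 entry of 933 residues, and ENST00000529986, an isoform 3 entry of 832. ENST00000358694 held 0.80% of CTNND1 counts in OVMANA, 2.54% in OVKATE, 11.3% in COV504, 13.2% in SK-OV-3, 21.8% in COV362, 23.7% in OVTOKO and 25.2% to 30.3% in the IGROV-1 libraries. ENST00000529986 held 42.9%, 33.4%, 37.8%, 23.3%, 28.96% and 12.4% in the same lines and 10.7% to 19.2% in IGROV-1. The entry ENST00000530094, of 861 residues, was at 10.7% in OVMANA and 12.9% in OVKATE and at 0.516% to 2.13% in the other libraries. Of the other CTNND1 entries, ENST00000524630 ranged from 8.25% in OVKATE to 22.8% in SK-OV-3, ENST00000428599 from 0.865% in OVMANA to 13.99% in OVTOKO, and ENST00000532245 from 1.11% in OVMANA to 16.7% in an IGROV-1 library. Relative to the joined gene, ENST00000358694 was lower by 2.81 on the log2 scale in OVMANA and 2.28 in OVKATE (adjusted p = 0.013 and 0.00098 by edgeR over all entries).

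The calls for CTNND1 rest in part on how entries are grouped. Usage of the joined gene passed in OVKATE (adjusted p = 0.0035 by edgeR), COV504 (adjusted p = 0.0077) and OVMANA (adjusted p = 0.042). Taken apart from TMX2, the CTNND1 entries gave adjusted p = 0.012, 0.16 and 0.049 by edgeR in OVKATE, COV504 and OVMANA. Summed by start codon they gave 0.030, 0.63 and 0.26. OVKATE is thus the only line in which all 3 groupings passed, and it did not pass without MinION replicate 1 of IGROV-1 (adjusted p = 0.057 by edgeR).

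ENAH exon 11a is a 63 nt exon at chr1:225504991-225505053 on the minus strand, included in epithelial Mena. It is shown in capitals between the bases that flank it, and the shorter sequence marks the bases at the join made when it is skipped.
ENAH with exon 11a: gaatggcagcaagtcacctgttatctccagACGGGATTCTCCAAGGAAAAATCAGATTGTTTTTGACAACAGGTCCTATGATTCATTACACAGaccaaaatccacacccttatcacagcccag
ENAH without exon 11a: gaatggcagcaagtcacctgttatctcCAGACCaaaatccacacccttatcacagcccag

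Entries with exon 11a took 98.6% of ENAH counts in OVMANA (343 counts, 96.7% to 99.4%), 92.9% in OVKATE, 91.7% in COV362, 91.6% in SK-OV-3, 91.0% in COV504 and 86.3% in OVTOKO. IGROV-1 gave 79.8% and 82.2% on the PromethION and 92.1% and 90.9% on the MinION. The share was therefore above 79% in lines with and without counted ESRP1, and only the interval of OVMANA lies above those of all other libraries. ENAH usage in OVMANA passed against the PromethION libraries of IGROV-1 (adjusted p = 0.011 by edgeR), with the entry lacking the exon, ENST00000366843, lower by 2.51 on the log2 scale, and was lost in 5 of 9 alternatives. Between the instruments the IGROV-1 shares did not overlap, 81.0% ± 1.63 against 91.5% ± 0.84 (SD, n = 2 each), and the usage test did not pass (adjusted p = 0.17 by edgeR). The compared entries also differ outside the exon: ENST00000366844, which has it, is 13168 nt long over 15 exons, and ENST00000366843 is 2758 nt long over 14. The share therefore measures these entries, ends included, and not the exon alone.

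**Figure D3:**
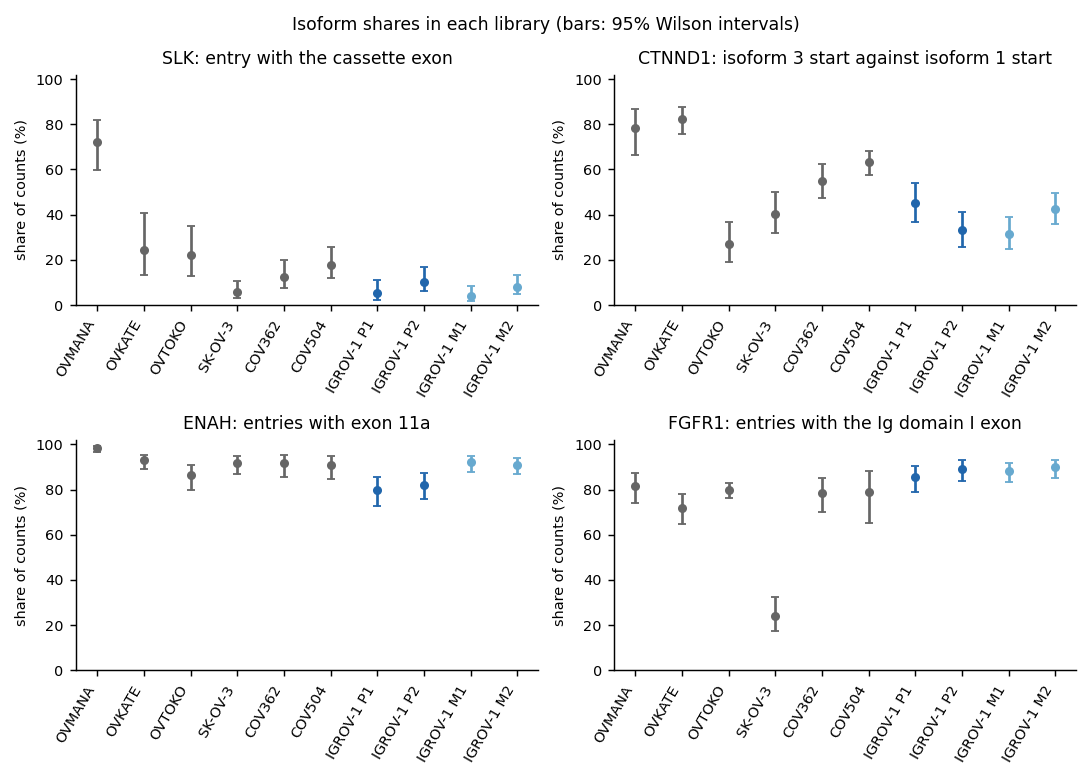
Share of counts in percent (y axis) for 4 isoform choices in each library (x axis); points are libraries, bars are 95% Wilson intervals, and blue points are IGROV-1 (dark, PromethION; light, MinION). The SLK exon is at 72.3% in OVMANA and the FGFR1 Ig domain I exon at 24.2% in SK-OV-3, each away from the other libraries, while CTNND1 isoform 3 is highest in OVKATE and OVMANA. Most FGFR1 counts without the Ig domain I exon are of the entry that holds neither IIIb nor IIIc.

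FGFR2 is the classic ESRP target. The third immunoglobulin-like domain of the receptor ends in exon IIIb in epithelial cells or exon IIIc in mesenchymal cells, which changes the growth factors it binds. Exon IIIb lies at chr10:121518682-121518829 and IIIc at chr10:121517319-121517463, on the minus strand. Entries with IIIb held 0 counts in 9 of the 10 libraries and 1 count in IGROV-1 PromethION replicate 2. OVKATE had 121 FGFR2 counts, of which 33.3 went to IIIc entries and 0 to IIIb, and the Wilson upper limit for IIIb among the 2 was 10.3%. This limit covers counting error only and leaves out the 85.7 counts of entries with neither exon. COV504 had 18.1 IIIc counts and 0 IIIb counts, with an upper limit of 17.5%. OVMANA, with ESRP1 at its highest, had 1.92 IIIc counts and an upper limit of 66.7%, so the choice between the 2 exons was not measurable at this depth.

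Most FGFR2 counts were assigned to an entry that holds neither exon. ENST00000369061, of 709 residues, skips IIIb, IIIc and the exon before them, and its join is shown with the bases on either side in capitals.
FGFR2 without IIIb and IIIc: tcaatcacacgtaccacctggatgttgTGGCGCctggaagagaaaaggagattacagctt
This entry held 92.6% of FGFR2 counts in OVMANA (26 counts), 92.7% in COV362 (27 counts), 70.8% in OVKATE (121 counts) and 52.3% in COV504 (38 counts). In IGROV-1 it held 89.8% and 63.3% on the PromethION and 71.8% and 67.003% on the MinION. The PromethION replicates thus differed widely, and the assignment of reads among the FGFR2 entries was not checked. These shares describe assigned counts and do not show how much FGFR2 mRNA skips the exons. SK-OV-3 and OVTOKO had 4 and 7 FGFR2 counts in all, too few for a share. The IIIc entry ENST00000613048, of 732 residues, took 43.8% in COV504, 26.2% in OVKATE and 6.43% to 28.8% in IGROV-1. FGFR2 usage passed in no line, with adjusted p = 0.45 by edgeR in COV504.

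FGFR1 has the same pair of exons, and its entry with IIIb alone was at 0 counts in every library. The entry ENST00000341462, of 367 residues, holds both exons and had counts in all 10 libraries, from 1.05% of FGFR1 in SK-OV-3 to 12.2% in COV362. It held 8.96% in OVMANA, 4.65% in OVKATE, 8.67% in OVTOKO, 9.70% in COV504 and 1.84% to 7.82% in IGROV-1. IIIc entries held 68.0% to 88.3% of FGFR1 counts outside SK-OV-3 and 31.1% in SK-OV-3. There the entry ENST00000619564, of 228 residues and with neither exon, took 67.9% of 123 counts, against 9.37% to 27.3% in the other libraries. FGFR1 usage in SK-OV-3 passed at adjusted p = 0.010 by edgeR, and this entry was higher by 1.77 on the log2 scale relative to the gene (adjusted p = 0.0049 by edgeR over all entries).

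The FGFR1 exon that codes for the first immunoglobulin-like domain, 267 nt long, is also alternative, and receptors without it are the beta forms. Entries with it took 24.2% of FGFR1 counts in SK-OV-3 (17.5% to 32.4%), and 81.5% in OVMANA, 71.9% in OVKATE, 79.8% in OVTOKO, 78.5% in COV362 and 78.8% in COV504. The IGROV-1 libraries gave 85.6% and 89.3% on the PromethION and 88.2% and 89.9% on the MinION. Summed by this exon, usage in SK-OV-3 gave adjusted p = 0.0018 by edgeR, mostly from the same entry, since ENST00000619564 lacks this exon too. That entry, with neither IIIb nor IIIc, held 83.5 of the 93.3 counts without the exon in SK-OV-3. It held 22.1 of 25.1 in OVMANA, 6.78 of 9.98 in COV504 and 19.6 of 19.9 in IGROV-1 PromethION replicate 1. The counts without the exon are therefore mostly this entry and do not give a share of beta forms. The unsummed call was lost in 4 of 10 alternatives, with adjusted p up to 0.17. The 4 FGFR1 entries of 820 to 853 residues that passed 10% in some library were all lowest in SK-OV-3: ENST00000397091 at 5.59%, ENST00000425967 at 10.01%, ENST00000447712 at 2.15% and ENST00000532791 at 5.36%. The FGFR1 entries divided unevenly between the IGROV-1 PromethION replicates, with ENST00000397091 at 19.0% and 43.2%.

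**Figure D4:**
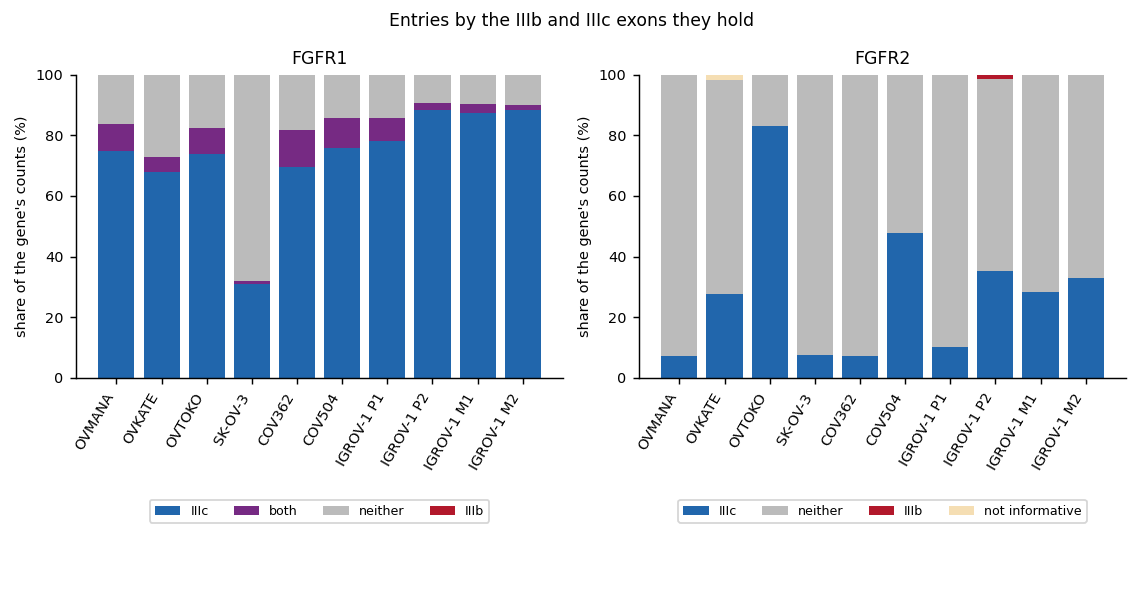
Share of FGFR1 and FGFR2 counts in percent (y axis) by the IIIb and IIIc exons that the entries hold, in each library (x axis). The neither class takes 67.9% of FGFR1 in SK-OV-3 and most FGFR2 counts in 9 of 10 libraries, while entries with IIIb and not IIIc hold only 1 FGFR2 count, in IGROV-1 PromethION replicate 2, and the FGFR1 entry with both exons holds 1.05% to 12.2%; the SK-OV-3 and OVTOKO bars of FGFR2 rest on 4 and 7 counts.

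CD44 can include up to 9 variable exons between its constant parts, and the epithelial form holds several of them. The standard form, ENST00000263398 of 361 residues, joins the constant exons directly, and that join is shown with its flanking bases in capitals.
CD44 standard: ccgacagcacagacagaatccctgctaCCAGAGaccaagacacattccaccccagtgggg
Entries with variable exons held 5.26% of 1079 CD44 counts in COV504 (4.08% to 6.76%), 3.94% of 1088 in COV362 (2.94% to 5.27%), 2.20% of 1137 in OVTOKO (1.49% to 3.22%) and 1.07% of 1253 in SK-OV-3 (0.63% to 1.80%). IGROV-1 gave 0.585% and 2.58% on the PromethION and 0.285% and 1.36% on the MinION. The standard form was thus 94.7% or more of CD44 in every library with counts. COV504 and COV362, which had counted ESRP1, lie above SK-OV-3 beyond their intervals, while COV362 overlaps OVTOKO and all 4 IGROV-1 intervals are wide, reaching 4.56% to 7.93%. CD44 usage passed in no line, with adjusted p = 0.71 by edgeR in COV504, and the entries differ in their 3′ ends as well. In OVMANA and OVKATE, where ESRP1 and ESRP2 were highest, the choice had no counts to measure.

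Over the 7 lines, with IGROV-1 as the mean of its PromethION libraries, the CTNND1 isoform 3 share had a Spearman rho of 0.93 with ESRP1 and 1 with ESRP2. The corresponding values with RBFOX2 and QKI were -0.50 and -0.39. The rho of 1 rests on an order that the counts do not resolve. ESRP2 was 25.7 and 25.1 CPM in OVKATE and OVMANA, and 2.03 and 1.93 CPM in SK-OV-3 and IGROV-1. The CTNND1 shares of SK-OV-3 and IGROV-1, 40.5% and 39.1%, were also close. For the SLK exon rho was 0.78 with ESRP1, 0.57 with ESRP2, -0.61 with RBFOX2 and -0.82 with QKI. For ENAH exon 11a rho was 0.81 with ESRP1, 0.82 with ESRP2, -0.61 with RBFOX2 and -0.39 with QKI. The IGROV-1 share used there, 81.0%, is the lowest of the lines, while its MinION libraries gave 91.5%. For the FGFR1 Ig domain I exon rho was 0 with ESRP1, -0.29 with ESRP2, 0.07 with RBFOX2 and -0.32 with QKI. Most FGFR1 counts without that exon were of the entry with neither IIIb nor IIIc, so these values do not describe the beta forms. These are descriptions over 7 points that share a platform and differ in much else, so no p is given. For SLK, Pearson's r with log2 ESRP1 was 0.67, since OVKATE has the ESRP1 of OVMANA and 24.6% of the exon.

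**Figure D5:**
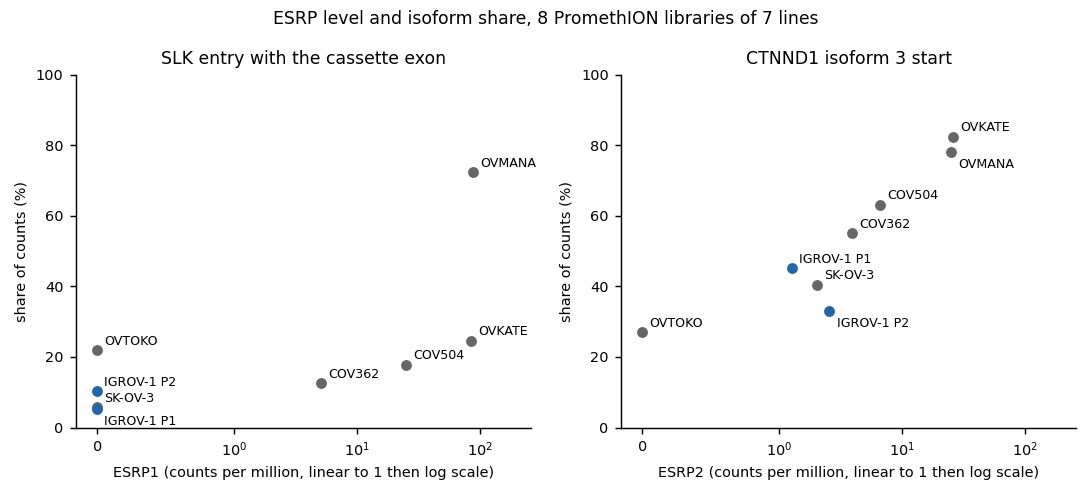
Isoform share in percent (y axis) against regulator level in CPM (x axis, linear to 1 and log above) for the 8 PromethION libraries; left, the SLK entry with the cassette exon against ESRP1, right, CTNND1 isoform 3 against ESRP2. OVMANA and OVKATE have ESRP1 of 87.1 and 84.1 CPM and SLK shares of 72.3% and 24.6%, while the CTNND1 share is highest in the 2 lines with the highest ESRP2.

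Genes whose level over the 7 lines was most like that of a regulator were ranked by Pearson's r of log2(CPM + 1) among 8423 genes averaging 10 CPM or more. For ESRP1 they were PRSS8 (r = 0.98), FRMD8, ST14, MFN1 and TMEM101 (0.97). PRSS8, a membrane serine protease, was 38.5 and 53.4 CPM in OVMANA and OVKATE, 16.5 CPM in COV504 and 0 in SK-OV-3 and IGROV-1. ST14, the protease matriptase, was 159.2 CPM in OVMANA and 172.6 CPM in OVKATE. For ESRP2 they were HMGN3 (0.97), GIPC1, MAPK13, RHOF and VPS11 (0.95), and those of RBFOX2 included ABCD3 (0.96), REV1, ZFYVE16 and HIST1H4C (0.95). The gene most like QKI was SLK itself (r = 0.99), followed by SENP6, HOXB6, STK25 and GCHFR (0.94). SLK and QKI were both lowest in OVKATE and highest in SK-OV-3.

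Other genes of the pathway were counted from lists. Of 18 further splicing regulators tested, the edgeR test called 4 higher and 4 lower in OVMANA, beside 18.9% and 16.5% of all genes. COV504 had as many, beside 24% and 19.6%. In OVKATE 6 were higher and 2 lower, beside 26.8% and 22.4%, and in COV362 6 and 6, beside 23.7% and 18.8%. SK-OV-3 had 5 and 4, beside 22% and 19.8%, and OVTOKO 3 and 4, beside 18.2% and 15.9%. Outside COV362 these counts were near the shares of all genes. CELF2, an RNA-binding protein related to the muscleblind antagonists, was 53.9 CPM in OVKATE, 11.8 CPM in COV362, 4.45 CPM in COV504 and at most 0.430 CPM elsewhere. RBFOX3, a paralog of RBFOX2 known from neurons, was 20.8 CPM in OVTOKO and 0 in all other libraries. MBNL2 was lowest in OVMANA at 4.27 CPM and highest in OVKATE at 96.9 CPM, and MBNL3 was highest in COV362 at 18.0 CPM.

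Of the 17 epithelial genes tested, 14 were higher and 0 lower in OVKATE, 13 and 1 in COV504 and 11 and 0 in OVMANA. The counts were 6 higher and 4 lower in COV362, 5 and 3 in SK-OV-3 and 4 and 4 in OVTOKO. Of all genes, 26.8% were higher and 22.4% lower in OVKATE, 24% and 19.6% in COV504 and 18.9% and 16.5% in OVMANA. These shares were 23.7% and 18.8% in COV362, 22% and 19.8% in SK-OV-3 and 18.2% and 15.9% in OVTOKO. The epithelial counts of SK-OV-3 and OVTOKO were near them. EPCAM, an epithelial adhesion molecule, was 1814 CPM in OVMANA, 817.1 CPM in OVKATE, 365.3 CPM in COV504, 158.3 CPM in COV362, 45.6 CPM in SK-OV-3 and 8.67 CPM in OVTOKO. KRT8 ran from 5.15 CPM in IGROV-1 to 3274 CPM in COV504, KRT19 from 0.578 CPM in OVTOKO to 1833 CPM in OVMANA, and RAB25 reached 307.1 CPM in OVKATE. Of the 10 mesenchymal genes tested, 9 were higher and 0 lower in SK-OV-3, 8 and 2 in COV504, 7 and 1 in COV362, 5 and 1 in OVTOKO, 3 and 3 in OVKATE and 2 and 2 in OVMANA. CDH2, N-cadherin, was 174.0 CPM in COV504, 105.0 CPM in COV362, 92.0 CPM in OVKATE, 51.7 CPM in SK-OV-3 and 0 in OVMANA and OVTOKO. FN1, fibronectin, was 782.0 CPM in SK-OV-3 and 0 in OVMANA and OVKATE. TGFBI was 485.7 CPM in SK-OV-3 and 385.3 CPM in COV504. S100A4 was 4011 CPM in COV362 and 39.2 CPM in COV504. The mesenchymal counts of OVKATE and OVMANA were near the shares of all genes called in those lines. All these counts are relative to IGROV-1, the shared control, in which EPCAM, RAB25, CDH2 and TGFBI were at or near 0. In its PromethION replicates 1 and 2, 5 and 7 of the 18 epithelial genes had 0 counts. For the 11 mesenchymal genes these numbers were 5 and 6. A gene at or near 0 there could not be called lower, so its direction was fixed in advance. The shares of all genes do not allow for this.

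A list of 16 other genes with epithelial or mesenchymal exons was tested for usage, of which 14 had enough counts in the line comparisons. The edgeR test called 2 in OVMANA (EPB41L5 and MAP3K7), beside 2.75% of all genes, and 3 in OVKATE (EPB41L5, EXOC7 and INF2), beside 4.97%. It called 2 in COV362, beside 2.98%, 2 in COV504, beside 2.56%, and 1 in SK-OV-3, beside 2.07%. In OVTOKO 0 were called, beside 1.35%, and 3 of the 14 had an unadjusted p under 0.05. EXOC7, a subunit of the exocyst, gave adjusted p = 0.00040 in OVKATE, 0.044 in COV362 and 0.031 in COV504 by edgeR. EPB41L5 gave 0.017 in OVMANA and 0.022 in OVKATE, MAP3K7 gave 0.031 in OVMANA and INF2, named here after its value was seen, gave 0.033 in OVKATE. As levels, 4 of these 16 genes were higher and 5 lower in OVMANA, beside 18.9% and 16.5% of all genes. In OVKATE 1 was higher and 6 lower, beside 26.8% and 22.4%, and in COV504 3 and 7, beside 24% and 19.6%. In SK-OV-3 the counts were 4 and 6, beside 22% and 19.8%. They were 5 and 5 in OVTOKO, beside 18.2% and 15.9%, and 3 and 4 in COV362, beside 23.7% and 18.8%. Of these, EPB41L5 was 70.1 and 52.8 CPM in IGROV-1 on the PromethION and 5.09 to 26.3 CPM in the other lines.

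The instruments were compared within IGROV-1, 2 MinION against 2 PromethION libraries. At gene level 0 of the 8 members tested passed the edgeR test, beside 0.817% of 10041 genes, and 1, QKI, had an unadjusted p under 0.05. DESeq2 called 0 as well. QKI was 108.2 ± 1.94 CPM on the PromethION and 137.3 ± 13.3 CPM on the MinION (SD, n = 2 each), with log2 change 0.30 ± 0.13 (SE, adjusted p = 0.28 by edgeR). ESRP1 and ESRP2 were not tested there because of their low counts. In transcript usage 0 of the 5 targets tested passed, beside 5.98% of 2979 genes, with ENAH alone at an unadjusted p under 0.05.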

How the data were processed

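Nanopore RNA-seq of 10 libraries from 7 established ovarian cancer cell lines was used. Reads were aligned with minimap2 2.24-r1122 and GRCh38 was the build, per the submitters' processing notes. How transcripts were counted, and whether strand was used, the sources used here do not state. The authors deposited their estimated counts, assigned to transcript entries from the aligned reads, and a table named TPM that equals the CPM of the same values and is not scaled by length, so levels are compared within a gene only. Estimated counts were rounded before testing, which moved at most 0.0258% of a library's counts.

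Exons, starts and transcript sequences came from GENCODE 29 (GRCh38). Entries of a gene were classed by the named exon or start, and a share is the class's counts over the counts of the classes compared, with 95% Wilson intervals. Shares rest on estimated counts of entries and not on reads over the junction, and the intervals cover counting error only. Genes and entries passing filterByExpr were tested with edgeR 4.0.16 (TMM, glmQLFTest, diffSpliceDGE) in R 4.3.3, with Benjamini-Hochberg adjustment over all features and a threshold of 0.05. In simulated libraries with known changes, the gene test recovered 45.5% of 200 genes changed by 1 on the log2 scale and 97% of 200 changed by 2 in the design of OVMANA against IGROV-1. The usage test of the same comparison recovered 38% of 200 entries changed by 2.

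The text names all 10 genes, entries with at least 10% of a gene's counts in a library with at least 20 gene counts, at most 4 genes of each list, those with the widest range over lines or, for usage, the lowest p, and the 5 genes most like each regulator. Some results that this rule covers are not reported here. The members and lists were chosen with earlier results of these data known. Alternatives were DESeq2 1.42.0 size factors and test, no filter, a mean of at least 10 CPM, each IGROV-1 library left out, PromethION libraries only, a replicate block and all libraries in the instrument fit. CTNND1 apart from TMX2 and entries summed by event were added after seeing the data.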

Additional observations from a re-analysis of the deposited data

How the results depend on the processing

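Counts of members called at gene level were 8, 8, 6, 4, 3 and 5 in OVMANA, OVKATE, COV504, COV362, SK-OV-3 and OVTOKO. The DESeq2 test lowered them to 3 in OVMANA, 4 in OVKATE, 2 in OVTOKO and 3 in COV504. With each IGROV-1 library left out in turn they ranged from 5 to 7 in OVMANA and 3 to 5 in OVTOKO. The lowest OVMANA count came without MinION replicate 1. Usage calls were 3 in OVMANA and 1 each in OVKATE, COV504 and SK-OV-3. With PromethION libraries only they were 0 in OVMANA, COV504 and SK-OV-3, and a mean of at least 10 CPM left 1 in OVMANA, where 2 targets were tested. With a library left out they ranged from 0 to 0 in OVMANA and COV504 and 0 to 1 in OVKATE and SK-OV-3. Treating CTNND1 apart from TMX2, or summing by event, left 0 in COV504.

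Over all members and settings, 287 of the gene-level checks kept their call and 51 lost it, 30 usage checks kept it and 28 lost it, and 0 changed direction at gene level. With PromethION libraries only, the MinION libraries do not count as replicates. There 29 gene-level checks kept their call and 5 lost it, and 1 usage check kept it and 5 lost it. Isoform shares moved by less than their intervals when entries under 1 count were left out. All classed entries were protein-coding, so a limit to protein-coding entries removed nothing and could not test the shares. Over all genes, DESeq2 called 1298 to 2095 genes per line against 4443 to 6405 by edgeR. Leaving out MinION replicate 1 gave 2890 against 4443 in OVTOKO. Genes with changed usage per line fell from 64 to 235 to between 13 and 71 with a library left out and to between 19 and 91 with PromethION libraries only.

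For the instruments, gene calls were 82 and became 15 with no filter, 49 with all libraries in the fit, and 4 to 209 with a library left out. Usage calls were 178, then 115 at a mean of at least 10 CPM and 38 to 61 with a library left out. The labels do not say that replicate numbers pair the libraries; differences between replicates 1 and 2 correlated across 7894 genes between instruments (r = 0.49), with only 2 pairs. With a replicate block 1979 genes passed, and 1 member was called, QKI (adjusted p = 0.01 by edgeR). The cause of each lost call was not tested. Some of the settings held fewer libraries or entries. Depth limits FGFR2 (4 and 7 counts in SK-OV-3 and OVTOKO), ESRP2, SLK (36 counts in OVKATE), FGFR1 in COV504 (47 counts) and CD44, with 0 counts in OVMANA and OVKATE.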
